A study of Mus musculus with 6 samples.

Results

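Transcripts of G2 and mitosis genes were described in whole embryonic mouse pancreas with and without *Jarid2* in the pancreatic epithelium. The list holds 50 genes named for their roles in the G2 phase, the spindle and the kinetochore. Of these, 49 had a probe set annotated to that gene alone, among 18194 genes measured in this way. *Ccnb1* was not analysed here. The arrays held RNA of whole e15.5 pancreases from C57BL/6 embryos, with 3 *Jarid2* WT (wild-type) samples and 3 *Jarid2* Δpanc (*Pdx1-Cre;Jarid2 flox/flox*) samples. In *Jarid2* Δpanc embryos, Cre driven by the *Pdx1* promoter deletes *Jarid2*, which encodes a partner of the Polycomb repressive complex, in pancreatic progenitors. Recombination is limited to the epithelium and is mosaic, so that mesenchyme, vessels, blood cells and some epithelial cells in these samples keep the gene. Whether the wild-type embryos carried Cre or a floxed allele is not given in the sources used here. The paper describes e15.5 controls as littermates of the mutants, without saying which arrayed samples shared a litter. Nothing states that the samples of a group came from separate litters, so that p-values measure only the spread between these samples. Signals are MAS5 intensities on a linear scale as deposited, and fold changes are *Jarid2* Δpanc minus *Jarid2* WT on a log2 scale after values under 16 were raised to 16.

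Dividing cells make most of these transcripts late in the cell cycle. The kinase Cdk1 and its B-type cyclins drive entry into mitosis, Aurora and Polo kinases and kinesin motors build the spindle, and the checkpoint proteins hold the anaphase-promoting complex back until kinetochores are attached. In quiescent cells the DREAM complex, through its MuvB core, binds a promoter element called the CHR and represses many of these genes, and the MuvB core joined by B-Myb and FoxM1 activates them in G2, often together with NF-Y bound to CCAAT boxes. In the embryonic pancreas, progenitors of the tips and trunk divide while acinar and endocrine cells differentiate, and mesenchyme and vessels also hold dividing cells. In bulk RNA of this kind, fewer cells of a type and less RNA per cell cannot be told apart.

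The promoters are shown first because the listed genes share letters there that the list did not use. Promoter windows from RefSeq (mouse build GRCm38.p6) reach from 250 bases before to 50 bases after each start and were present for 42 of the 50 genes. The CHR was searched as TTTGAA and TTCGAA and the CCAAT box as CCAAT, on both strands, so that TTCAAA and ATTGG also count, and no motif contains another. A gene with several starts was counted once if any of its windows held the motif. A CHR was found in 31 of 42 listed genes (73.8%), against 5854 of 27025 genes with a window (21.7%) and 2529 of the 14453 among them that were measured on the arrays (17.5%). A CCAAT box was found in 31 of 42 (73.8%), against 41.1% and 42.0%. Both motifs occurred together in 28 of 42 (66.7%), against 9.65% and 8.25%. E2F letters (TTTGGCGC and TTTCCCGC, on both strands), which mark many genes of DNA replication, were found in 2 of 42 (4.76%), against 1.80% of all genes with a window and 2.77% of those measured on the arrays. In comparison, 9 of 30 genes of a DNA replication and S phase list (30.0%) held them and 6 of these 30 (20.0%) held a CHR. A match is a description of letters and not a bound site, and a window without a match says only that these letters are not in it.

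The last 180 bases of 11 windows are printed 5′ to 3′ on the strand of the gene, with the CHR and CCAAT box letters in capitals and all other bases in lower case. *Mki67*, *Aurka*, *Bub1b*, *Top2a*, *Kif11*, *Anln* and *Ndc80* stand for genes whose signals were higher in every *Jarid2* Δpanc sample. *Cdk1* and *Plk1* stand for central kinases whose groups overlapped, and *Nusap1* and *Pttg1* have neither motif in their whole window. *Nusap1* was also higher in every *Jarid2* Δpanc sample, and *Pttg1* was lower in every one. The printed windows do not show how common the motifs are. Of the 13 genes with a window that were higher in every *Jarid2* Δpanc sample, 9 held a CHR.
Mki67 (chr7:135716330-135716509, minus strand): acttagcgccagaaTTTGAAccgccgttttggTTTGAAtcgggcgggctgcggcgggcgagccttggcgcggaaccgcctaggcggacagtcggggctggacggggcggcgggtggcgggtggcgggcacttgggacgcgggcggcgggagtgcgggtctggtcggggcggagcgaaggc
Aurka (chr2:172370521-172370700, minus strand): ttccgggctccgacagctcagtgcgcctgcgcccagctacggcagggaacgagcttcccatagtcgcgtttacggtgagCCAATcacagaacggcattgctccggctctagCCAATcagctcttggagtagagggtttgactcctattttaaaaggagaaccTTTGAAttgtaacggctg
Bub1b (chr2:118598081-118598260, plus strand): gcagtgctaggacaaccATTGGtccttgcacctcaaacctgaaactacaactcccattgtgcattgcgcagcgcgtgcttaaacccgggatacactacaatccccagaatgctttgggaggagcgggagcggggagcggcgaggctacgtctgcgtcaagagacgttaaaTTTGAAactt
Top2a (chr11:99024140-99024319, minus strand): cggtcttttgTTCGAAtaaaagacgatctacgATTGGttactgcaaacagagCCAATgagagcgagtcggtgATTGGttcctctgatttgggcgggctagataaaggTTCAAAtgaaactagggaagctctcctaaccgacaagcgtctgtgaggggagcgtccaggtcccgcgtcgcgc
Kif11 (chr19:37376252-37376431, plus strand): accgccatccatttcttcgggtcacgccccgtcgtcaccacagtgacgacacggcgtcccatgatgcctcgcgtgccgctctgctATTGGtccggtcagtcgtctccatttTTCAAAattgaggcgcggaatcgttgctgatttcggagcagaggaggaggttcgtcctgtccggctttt
Anln (chr9:22389157-22389336, minus strand): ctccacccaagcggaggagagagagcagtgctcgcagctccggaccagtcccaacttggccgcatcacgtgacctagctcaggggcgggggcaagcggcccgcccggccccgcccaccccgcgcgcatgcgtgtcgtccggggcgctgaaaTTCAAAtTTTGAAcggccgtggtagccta
Ndc80 (chr17:71526808-71526987, minus strand): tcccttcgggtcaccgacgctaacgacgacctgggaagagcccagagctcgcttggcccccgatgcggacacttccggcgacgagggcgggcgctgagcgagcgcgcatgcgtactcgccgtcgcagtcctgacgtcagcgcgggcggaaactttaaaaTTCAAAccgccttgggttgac
Cdk1 (chr10:69352863-69353042, minus strand): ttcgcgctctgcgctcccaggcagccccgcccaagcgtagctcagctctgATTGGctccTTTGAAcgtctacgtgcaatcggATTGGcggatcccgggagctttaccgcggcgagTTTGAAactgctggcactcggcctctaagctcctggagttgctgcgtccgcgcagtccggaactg
Plk1 (chr7:122159305-122159484, plus strand): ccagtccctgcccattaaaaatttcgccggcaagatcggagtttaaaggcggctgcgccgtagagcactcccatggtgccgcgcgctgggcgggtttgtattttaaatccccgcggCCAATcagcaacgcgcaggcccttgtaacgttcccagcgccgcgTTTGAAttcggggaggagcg
Nusap1 (chr2:119618168-119618347, plus strand): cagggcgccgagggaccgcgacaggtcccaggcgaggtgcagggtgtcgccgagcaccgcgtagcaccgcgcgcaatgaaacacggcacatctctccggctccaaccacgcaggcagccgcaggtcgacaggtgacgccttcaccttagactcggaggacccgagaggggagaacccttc
Pttg1 (chr11:43425932-43426111, minus strand): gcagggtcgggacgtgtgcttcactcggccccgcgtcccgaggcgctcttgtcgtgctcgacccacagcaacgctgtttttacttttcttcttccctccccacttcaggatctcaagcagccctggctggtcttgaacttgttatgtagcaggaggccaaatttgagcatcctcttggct
In *Aurka*, *Bub1b*, *Anln*, *Ndc80* and *Plk1* a CHR lies within the 50 bases after the start, and in *Cdk1*, *Kif11* and *Top2a* one lies shortly before it. *Mki67* has its CHR letters further upstream, and its CCAAT boxes lie before the printed stretch.

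**Figure D1:**
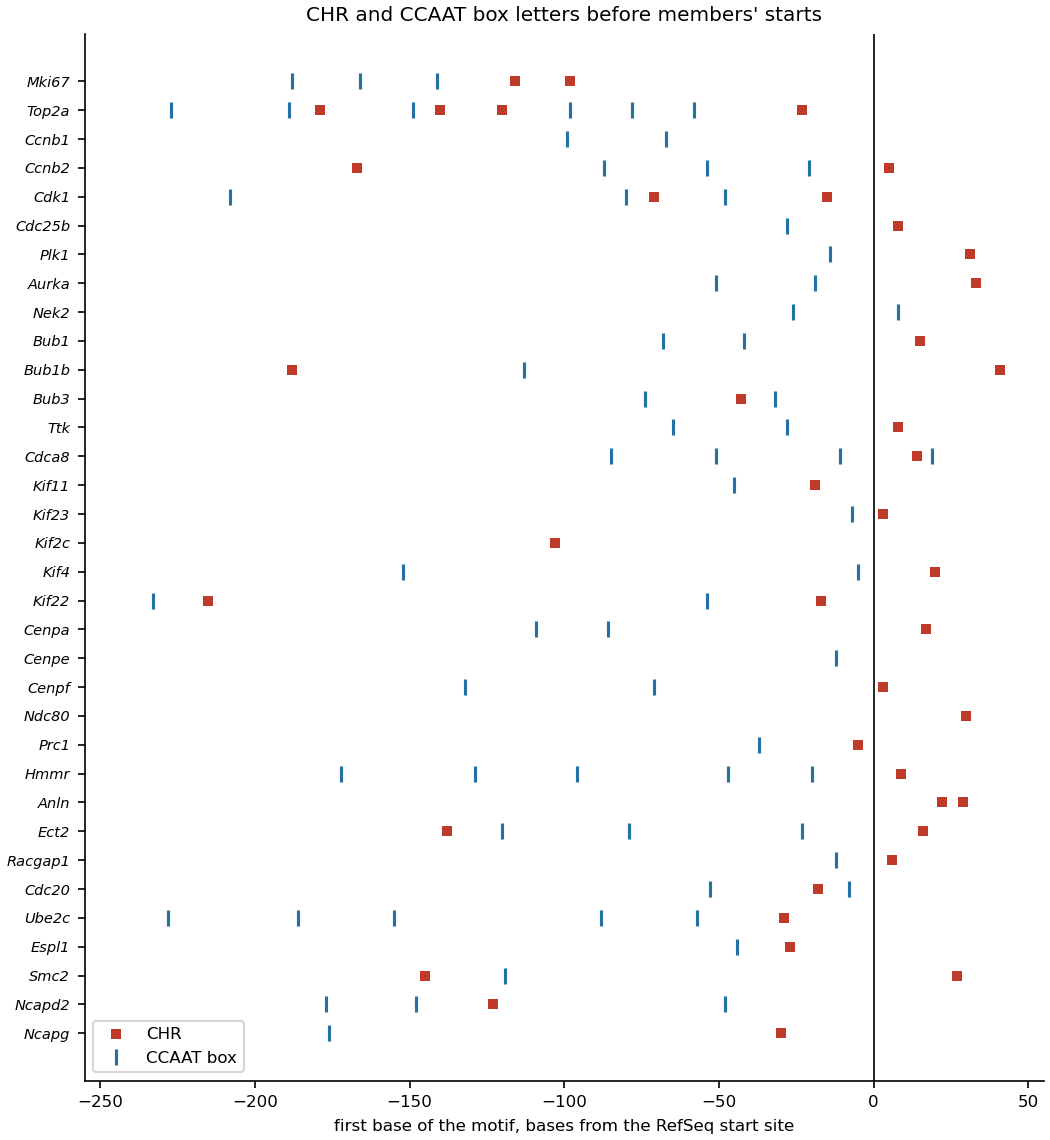
Positions of CHR (red squares) and CCAAT box (blue bars) letters, in bases from the RefSeq start site (vertical line), in the 34 listed genes that hold either motif. For genes with more than 1 start, 1 window is drawn. CHR letters gather near the start, with CCAAT boxes mostly upstream of them.

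CHR letters were concentrated close to the start. In the 100 bases around it, from 50 before to 50 after, 28 of 42 listed genes (66.7%) held a CHR, against 6.12% of all genes with a window and 4.62% of those measured on the arrays. This narrower window was chosen after the positions were seen. The share of genes with a CHR was 22 of 30 (73.3%) in a second list of G2 and mitosis genes, 14 of 28 (50.0%) among other kinetochore genes, 4 of 18 (22.2%) in the anaphase-promoting complex and its regulators and 6 of 15 among MuvB, E2F and pocket proteins. Lists of cell type markers with a window for few genes ranged from 0 of 10 in skeletal muscle and 1 of 13 (7.69%) in acinar cells to 3 of 7 (42.9%) in erythroid cells and 4 of 8 (50.0%) in mesenchyme.

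The transcript of *Jarid2* had signals of 335, 301 and 415 against 392, 398 and 355, and its log2 fold change was 0.13 (standard error 0.14, adjusted p = 0.820). Where this probe set lies relative to the deleted exon was not examined, so that its signal checks nothing about the deletion. By qRT-PCR, the paper reports reduced expression of the deleted exon at e15.5. Some samples stood apart. Skeletal muscle markers (12 genes) summed to 12384 in *Jarid2* WT replicate 3 and to at most 343 in the other samples. Macrophage and leukocyte markers (10 genes) summed to 5254 in *Jarid2* Δpanc replicate 1 and to at most 2417 in the others. The X-inactivating RNA *Xist* had signals of 24, 12 and 4390 in *Jarid2* WT and 4662, 4905 and 4197 in *Jarid2* Δpanc. The Y-linked *Eif2s3y* had 560, 506 and 9 against 7, 5 and 13. The sex of the embryos thus moved with the groups, except in *Jarid2* WT replicate 3, and its part in the results was not tested. The median of the 49 genes was 0.10 when *Jarid2* WT replicate 3 was left out and 0.13 when *Jarid2* Δpanc replicate 1 was. *Malat1*, a noncoding RNA of the nucleus picked once its values were known, had 1503, 1221 and 1146 in *Jarid2* WT and 2756, 2801 and 3486 in *Jarid2* Δpanc. Its groups did not overlap, and its relation to the G2 and mitosis genes was not tested.

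Signals of the G2 and mitosis genes were slightly higher in *Jarid2* Δpanc pancreases, and no single gene passed the adjusted threshold. The median log2 fold change over the 49 genes was 0.10, a fold of 1.07, with quartiles of 0.06 and 0.17 and a range from -0.14 to 0.40. The sign was positive for 40 genes and negative for 9, whereas 47.7% of all genes were positive and 43.3% negative. Among genes outside the dimmest 40%, to which all 49 belong, 52.4% were positive and 47.6% negative, with a median of 0.01. With limma and Benjamini-Hochberg adjustment over all genes, 0 members passed in either direction, as did 0% of the 18194 genes. At an unadjusted p under 0.05, 12 members (24.5%) were higher and 0 lower, against 4.36% and 4.44% of all genes and 5.65% and 6.34% of genes outside the dimmest 40%. In 15 members (30.6%) every *Jarid2* Δpanc sample lay above every *Jarid2* WT sample, and in 1 member every sample lay below, against 5.71% and 5.66% of all genes and 7.54% and 8.07% of genes outside the dimmest 40%. The count at an unadjusted p depended on the setting. It was 2 (4.08%, *Aurka* and *Ndc80*) against 3.92% of all genes when the 1594 genes at the floor on every array were left out, and 4 (8.16%) against 4.97% with the dimmest 40% left out. On the same brighter genes with trended, robust variances it was 11 (22.4%) against 4.82%, and with quantile normalization it was 18 (36.7%) against 4.45%. Without *Jarid2* WT replicate 3 it was 5 (10.2%) against 4.91%, and 16 members (32.7%) then lay above the wild-type samples without overlap, against 10.8% of all genes. Without *Jarid2* WT replicate 1, 26 members (53.1%) did so, against 9.88%. On the lower side, 3 members were separated when *Jarid2* WT replicate 2 was left out, against 9.76% of all genes, and 2 when *Jarid2* Δpanc replicate 2 was, against 9.52%.

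The same pattern was seen sample by sample. Relative to the mean of the wild-type samples, the mean log2 signal of the 49 genes was 0.01, 0.01 and -0.02 in *Jarid2* WT replicates 1 to 3, and 0.08, 0.14 and 0.10 in *Jarid2* Δpanc replicates 1 to 3. The groups did not overlap, and *Jarid2* Δpanc replicate 2 was the highest of the 6 samples. The number of genes above their wild-type mean was 28, 21 and 16 of 49 in the wild-type samples and 37, 38 and 40 in the *Jarid2* Δpanc samples. The summed signal was 44163, 43645 and 42456 in *Jarid2* WT and 44961, 46929 and 45928 in *Jarid2* Δpanc, which also did not overlap. Over all genes the mean ranged from -0.02 to 0.02 in the 6 samples. The listed genes varied little between replicates, with a median standard deviation within groups of 0.08 in both groups on the log2 scale, against 0.14 and 0.13 for all genes outside the dimmest 40%. These sets were not matched for signal, and the part of brightness in this difference was not tested.

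**Figure D2:**
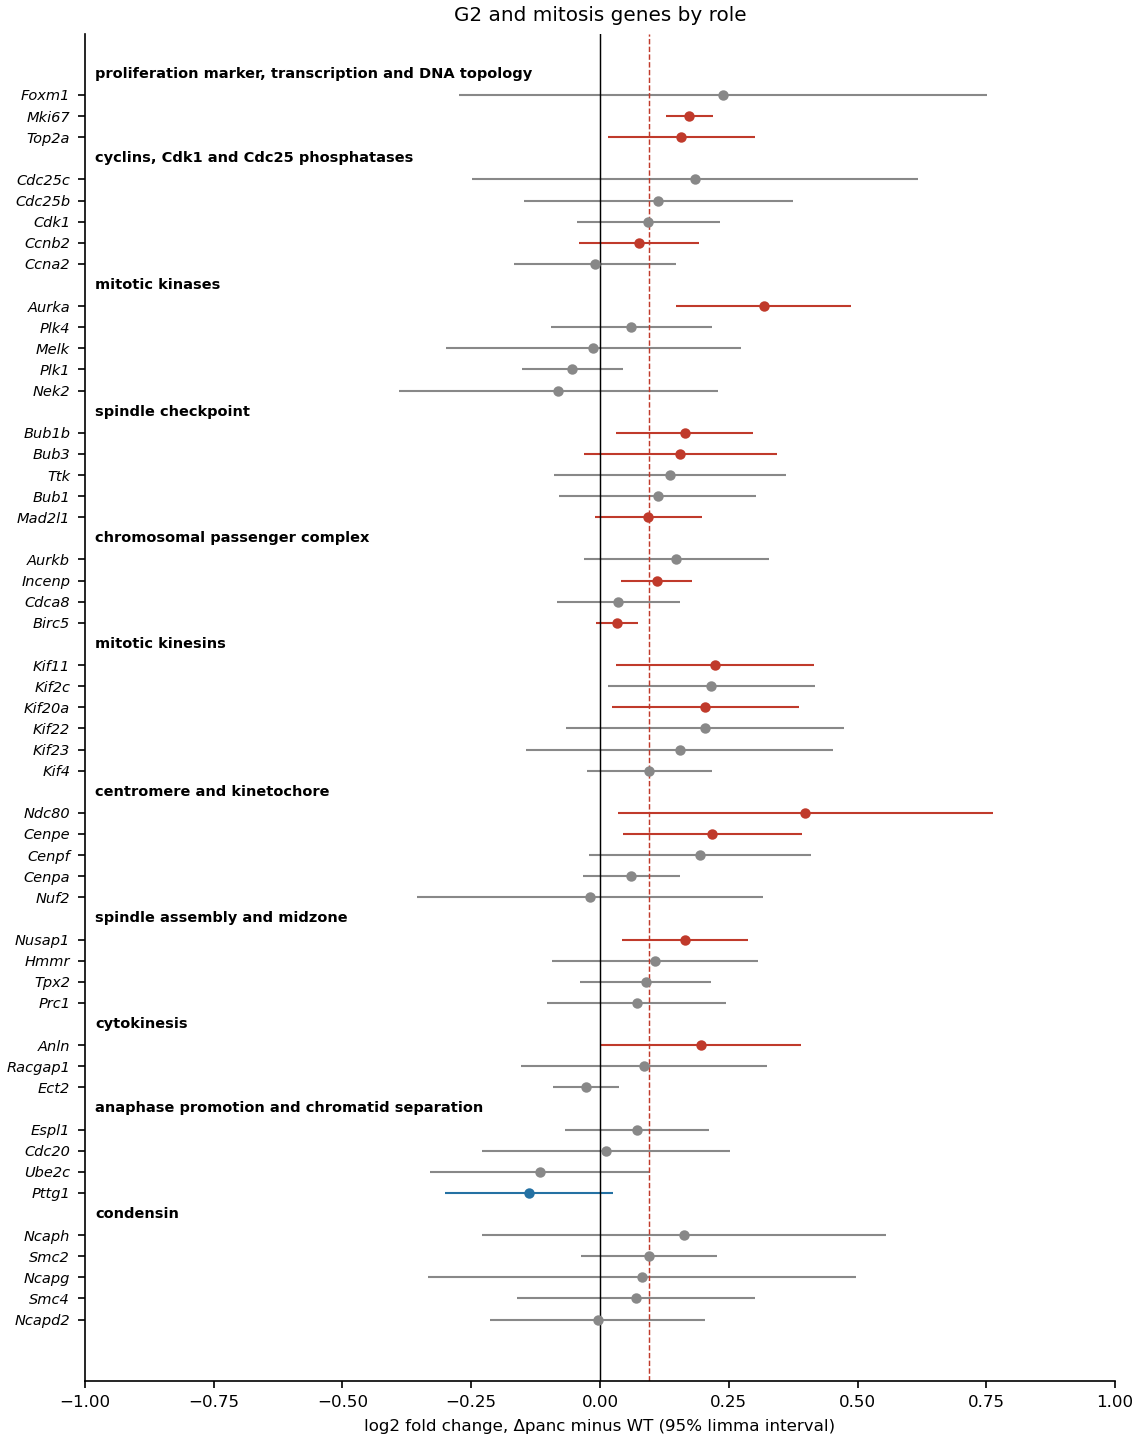
Log2 fold changes (points) with 95% limma intervals (lines) of the 49 genes by role. Red marks genes with every *Jarid2* Δpanc sample above every *Jarid2* WT sample, blue the reverse, and grey those that overlap. The dashed line is the median of 0.10, and most points lie to the right of 0 (solid line).

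*Mki67*, *Top2a* and *Foxm1* stand for proliferation, DNA topology and transcription. *Mki67* encodes the nuclear protein Ki-67, which coats mitotic chromosomes and marks cycling cells. Its signal was 2139, 2177 and 2196 in *Jarid2* WT and 2469, 2425 and 2451 in *Jarid2* Δpanc. The groups were far apart relative to their narrow spread, with a log2 fold change of 0.17 (95% interval 0.13 to 0.22, adjusted p = 0.218 from limma). In the main fit its unadjusted p of 2.6e-04 was the lowest of the listed genes. *Mki67* did not have an unadjusted p under 0.05 with the floor at 1 or with the dimmest 40% left out. Nor did it with genes at the floor on every array left out. *Top2a*, the topoisomerase that untangles sister chromatids, had signals of 2419, 2673 and 2536 against 2761, 2989 and 2760. All *Jarid2* Δpanc samples were above all wild-type samples, and the log2 fold change was 0.16 (95% interval 0.02 to 0.30, adjusted p = 0.522). *Foxm1*, a transcription factor that activates genes of this list in G2, was dim, with 75, 103 and 80 against 102, 120 and 83. The groups overlapped, and the interval of its log2 fold change of 0.24 ran from -0.27 to 0.75.

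Among *Cdk1*, its cyclins and the Cdc25 phosphatases, 4 of 5 measured genes had positive fold changes, and none had an unadjusted p under 0.05. *Cdk1*, the kinase that triggers mitosis, had signals of 1805, 1691 and 1629 in *Jarid2* WT and 1741, 1840 and 1888 in *Jarid2* Δpanc. The groups overlapped through *Jarid2* WT replicate 1, and the log2 fold change was 0.09 (standard error 0.05, adjusted p = 0.731). *Ccnb2*, a B-type cyclin, had 990, 974 and 897 against 996, 998 and 1019. Its groups were separated by only a few units, and the log2 fold change was 0.08 (standard error 0.04). *Ccna2*, the A-type cyclin of S and G2 phase, had a log2 fold change of -0.01, while *Cdc25b* and *Cdc25c*, phosphatases that remove the inhibitory phosphates of Cdk1, had 0.11 and 0.18 with standard errors of 0.10 and 0.16.

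The mitotic kinases differed among themselves, with 2 positive and 3 negative fold changes and a median of -0.01. *Aurka*, the Aurora kinase of centrosomes and spindle poles, had signals of 391, 439 and 439 in *Jarid2* WT and 542, 499 and 540 in *Jarid2* Δpanc. Every *Jarid2* Δpanc sample was above every wild-type sample. The difference of 24.7% (log2 fold change 0.32, 95% interval 0.15 to 0.49, adjusted p = 0.319) was exceeded in this list only by *Ndc80*. *Plk1*, the Polo kinase that acts in centrosome maturation and at kinetochores, had 493, 458 and 468 against 461, 443 and 463. These groups overlapped, and the log2 fold change was -0.05 (95% interval -0.15 to 0.04). *Plk4*, which starts centriole duplication, had 0.06, the centrosome kinase gene *Nek2* had -0.08 and *Melk* had -0.01, with standard errors of 0.06, 0.12 and 0.11. *Jarid2* Δpanc replicate 1, with a signal of 460 for *Nek2*, was low against 566 to 603 in the other 5 samples.

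All 5 spindle checkpoint genes had positive fold changes, with a median of 0.14. *Bub1b*, whose product BubR1 is part of the complex that inhibits Cdc20, had signals of 597, 586 and 595 in *Jarid2* WT and 640, 714 and 642 in *Jarid2* Δpanc. The wild-type samples were nearly equal and all lower. Its log2 fold change was 0.17 (standard error 0.05, adjusted p = 0.469), but 0.08 and -0.37 in its other probe sets, the latter being dim. *Bub3*, a partner of BubR1 and Bub1, had 1456, 1676 and 1418 against 1696, 1681 and 1679. *Mad2l1*, which encodes the Cdc20 inhibitor Mad2, had 1105, 1143 and 1147 against 1157, 1205 and 1263. Both genes were separated by a narrow margin, with log2 fold changes of 0.16 and 0.09 (standard errors 0.07 and 0.04). In the next brightest probe set of *Bub3* the groups overlapped, with a log2 fold change of -0.04. The kinase genes *Ttk* and *Bub1* had 0.14 and 0.11 (standard errors 0.09 and 0.07), and their groups overlapped.

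The 4 genes of the chromosomal passenger complex, which corrects faulty attachments of microtubules and later guides cytokinesis, were all positive, with a median of 0.07. *Incenp*, its scaffold, had signals of 1148, 1157 and 1196 in *Jarid2* WT and 1230, 1281 and 1267 in *Jarid2* Δpanc. The groups did not overlap, and the log2 fold change was 0.11 (95% interval 0.04 to 0.18, adjusted p = 0.375). In the next brightest probe set of *Incenp* they overlapped, with a log2 fold change of 0.02. *Birc5*, which encodes survivin, had 1453, 1421 and 1427 against 1474, 1464 and 1462. These groups were separated as well, by a difference of 2.31%. *Aurkb*, the kinase of the complex, had 526, 455 and 459 against 537, 543 and 513. *Jarid2* WT replicate 1 reached into the *Jarid2* Δpanc range, and the log2 fold change was 0.15 (95% interval -0.03 to 0.33, adjusted p = 0.669). *Cdca8*, which encodes borealin, had 0.04 (standard error 0.05).

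The 6 mitotic kinesins had a median log2 fold change of 0.20, the highest of the role groups with over 3 genes. *Kif11*, the motor Eg5 that pushes spindle poles apart, had signals of 478, 439 and 469 in *Jarid2* WT and 507, 591 and 523 in *Jarid2* Δpanc. The groups did not overlap, and the log2 fold change was 0.22 (standard error 0.07, adjusted p = 0.496). *Kif20a*, a motor of the central spindle, had 473, 471 and 415 against 506, 549 and 509. These groups were separated too, and the log2 fold change was 0.20 (standard error 0.07, adjusted p = 0.512). *Kif2c*, which encodes MCAK, a depolymerase of microtubule ends, had 623, 539 and 559 against 702, 623 and 673. *Jarid2* WT replicate 1 and *Jarid2* Δpanc replicate 2 had the same signal, and the log2 fold change was 0.22 (standard error 0.08, adjusted p = 0.533). *Kif22*, *Kif23* and *Kif4*, motors of chromosome arms and of the midzone, had 0.20, 0.15 and 0.10 (standard errors 0.10, 0.11 and 0.05), and the groups of each overlapped. *Kif4* lies on the X chromosome.

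Of the 5 centromere and kinetochore genes, 4 had positive fold changes. *Ndc80*, the microtubule-binding subunit after which its complex is named, had signals of 146, 170 and 203 in *Jarid2* WT and 211, 228 and 240 in *Jarid2* Δpanc. The groups did not overlap, although the wild-type samples were spread out, and the difference of 31.8% was the highest of the list (log2 fold change 0.40, 95% interval 0.03 to 0.76, adjusted p = 0.530). *Nuf2*, whose product pairs with Ndc80 in the same complex, had a log2 fold change of -0.02 with an interval from -0.36 to 0.32. *Cenpe*, a kinetochore motor, had 357, 337 and 342 against 427, 412 and 368. The groups were separated, and the log2 fold change was 0.22 (standard error 0.07, adjusted p = 0.463). *Cenpf*, a large protein of the outer kinetochore, and *Cenpa*, the histone variant of centromeres, had 0.19 and 0.06 (standard errors 0.08 and 0.04), with overlapping groups.

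**Figure D3:**
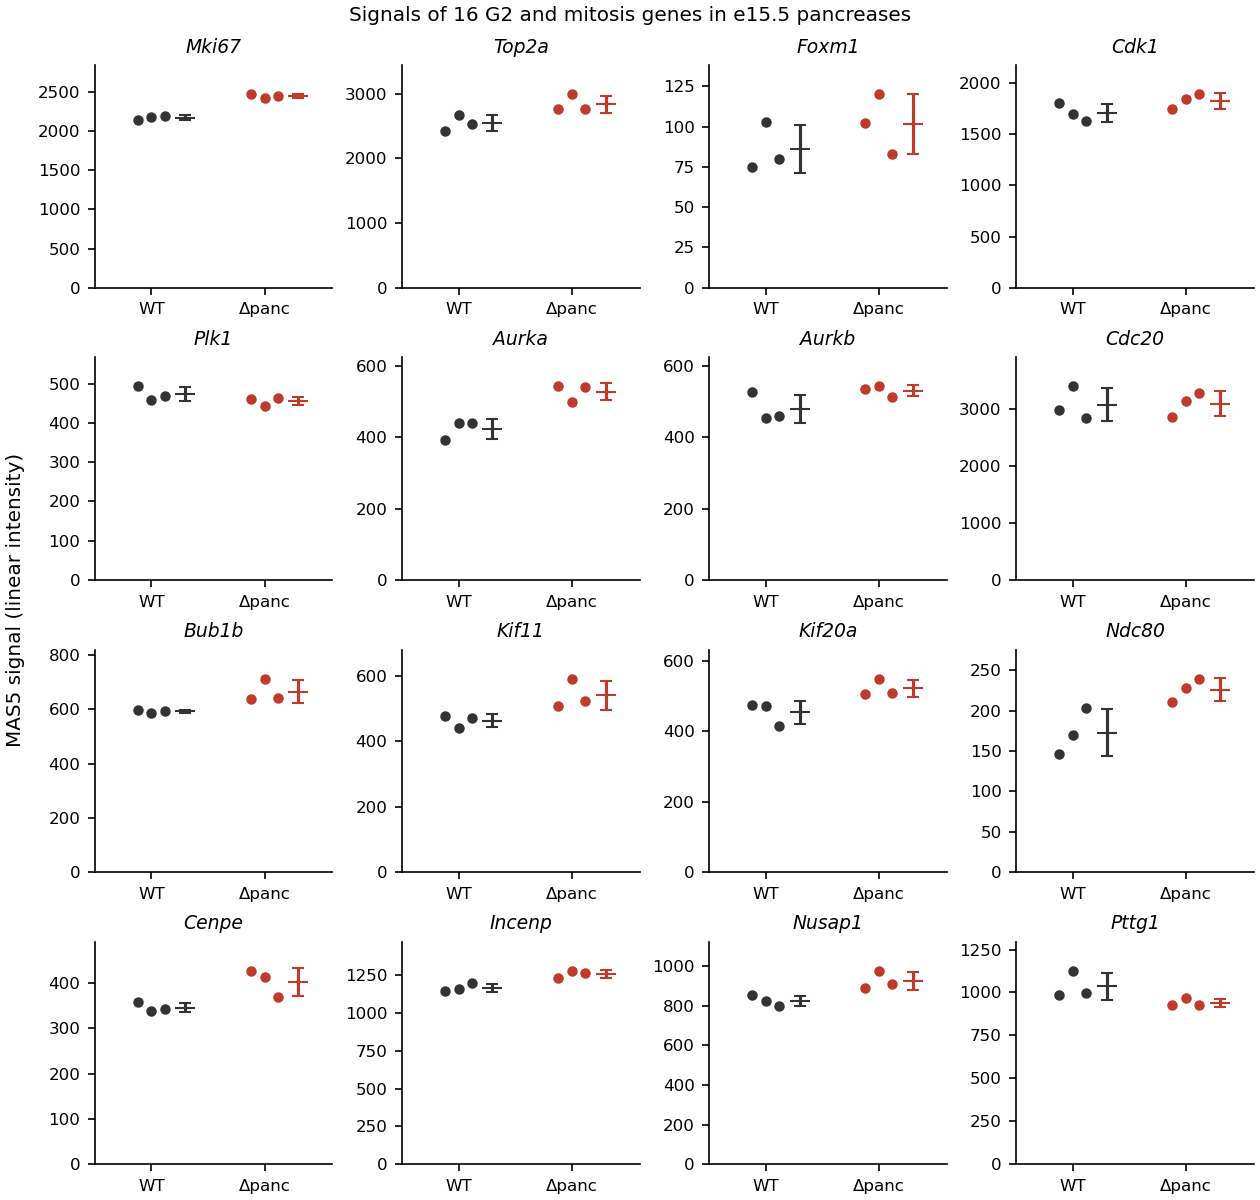
MAS5 signals (linear intensity, axes from 0) of 16 G2 and mitosis genes in the 3 *Jarid2* WT (black) and 3 *Jarid2* Δpanc (red) samples. Points are samples, and the bars beside them are the mean and SD. *Mki67* and *Aurka* are clearly separated, *Cdc20* and *Plk1* overlap, and *Pttg1* is lower in every *Jarid2* Δpanc sample.

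Genes of the spindle and of cytokinesis had median log2 fold changes of 0.10 over 4 genes and 0.09 over 3 genes. *Nusap1*, which binds and bundles spindle microtubules, had signals of 851, 823 and 800 in *Jarid2* WT and 889, 976 and 910 in *Jarid2* Δpanc. The groups did not overlap, and the log2 fold change was 0.16 (95% interval 0.04 to 0.29, adjusted p = 0.424). *Anln*, which encodes the contractile ring scaffold anillin, had 758, 673 and 659 against 849, 767 and 777. The margin between its groups was small, and the log2 fold change was 0.20 (95% interval 0.00 to 0.39, adjusted p = 0.565). *Hmmr* and *Tpx2*, whose products act in spindle assembly, had 0.11 and 0.09, and *Prc1*, which bundles midzone microtubules, had 0.07. *Racgap1* and *Ect2*, whose products act together at the division plane, had 0.09 and -0.03 (standard errors 0.09 and 0.02).

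Genes that act at the onset of anaphase had a median of -0.05 and included the gene with the most negative fold change. *Pttg1* encodes securin, which holds separase inactive until it is degraded. Its signal was 985, 1127 and 996 in *Jarid2* WT and 928, 966 and 926 in *Jarid2* Δpanc. It was the only listed gene with every *Jarid2* Δpanc sample below every wild-type sample, with a log2 fold change of -0.14 (95% interval -0.30 to 0.03, adjusted p = 0.658) and of -0.04 and -0.09 in its other probe sets. *Cdc20*, the activator of the anaphase-promoting complex, had 2971, 3390 and 2835 against 2852, 3133 and 3274. These groups overlapped fully, and the log2 fold change was 0.01 (95% interval -0.23 to 0.25). *Ube2c*, a ubiquitin-conjugating enzyme of this complex, had -0.12 and *Espl1*, which encodes separase, had 0.07 (standard errors 0.08 and 0.05).

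The 5 condensin genes, whose products compact mitotic chromosomes, had a median of 0.08, and the brightest probe set of none of them was separated between groups. *Smc2* had 0.10 on the log2 scale (standard error 0.05), *Smc4* of 0.07, *Ncaph* of 0.16, *Ncapg* of 0.08 and *Ncapd2* of -0.0042. In *Ncapg* and *Ncaph*, *Jarid2* WT replicate 1 was the highest of the 6 samples. Standard errors of 0.16 and 0.15 for these genes were the widest of the group.

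**Figure D4:**
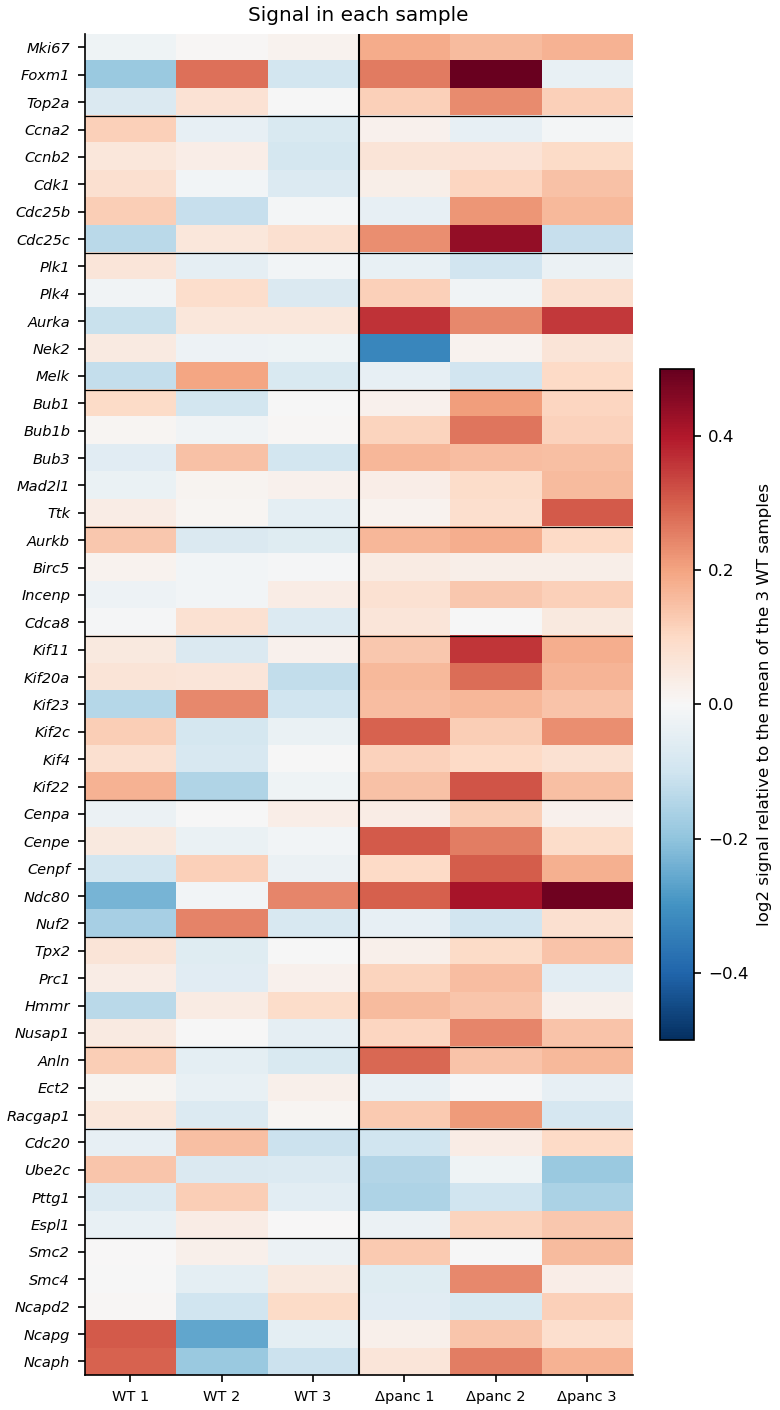
Log2 signal of each of the 49 genes in each of the 6 samples, set against the wild-type mean of the gene. Red is above and blue below that mean, and horizontal lines divide the role groups. Most rows are red in the 3 *Jarid2* Δpanc columns, with *Pttg1* and *Ube2c* among the exceptions.

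A total of 116 probe sets were annotated to the 49 genes alone, and 34 genes had more than 1. The 67 probe sets that did not stand for their gene give a second reading, although on the same 6 samples. Of the 42 with a mean signal of at least 64, 33 (78.6%) had a positive fold change, with a median of 0.14, against 3529 of 5912 such probe sets of all genes (59.7%) and a median of 0.04. Those with a negative fold change belonged to *Ncapd2* (-0.15), *Cdc20* (-0.14), *Kif22* (-0.09), *Tpx2* (-0.07), *Cdca8* (-0.05), *Bub3* (-0.04), *Pttg1* (-0.04), *Plk4* (-0.02) and *Cdc25c* (-0.00105). Some of the 67 had larger fold changes than the brighter probe set and are named after their values were seen. The second probe set of *Ncapg* had signals of 134, 128 and 143 against 227, 191 and 236. A probe set of *Kif11* had 66, 65 and 66 against 124, 101 and 90. The groups of both did not overlap, and their log2 fold changes were 0.69 and 0.66. The second probe set of *Cenpe* had 127, 124 and 97 against 190, 163 and 175, again without overlap, and a log2 fold change of 0.61. The second probe set of *Smc4* had 1149, 967 and 1076 against 1300, 1502 and 1522, and a further one had 769, 756 and 722 against 834, 902 and 977. Both were higher in every *Jarid2* Δpanc sample, with log2 fold changes of 0.44 and 0.27, as were probe sets of *Smc2* with 0.30, 0.48 and, at dim signals, 0.63. Probe sets of a gene can read different transcript ends, and which of them follows the gene as a whole was not tested.

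Expression was also set beside the promoter letters. The 31 measured genes with a CHR had a median log2 fold change of 0.11, with 27 positive, 9 separated on the higher side and none on the lower. The 10 with a window but without a CHR had a median of 0.05, with 6 positive, 4 separated on the higher side and 1 on the lower. Of the 13 separated higher genes that have a window, 9 (69.2%) held a CHR, beside 31 of the 41 measured genes with a window (75.6%). Over all genes, 5.71% were separated on the higher side and 5.66% on the lower. The difference between listed genes with and without a CHR was not tested.

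Further cell cycle genes were described by lists, and no gene of these lists passed the adjusted threshold. Their counts stand beside 4.36% higher and 4.44% lower at an unadjusted p under 0.05, and 5.71% and 5.66% separated, over all genes. In 38 other genes of G2 and mitosis the median was 0.08, with 7 genes higher and 1 lower at an unadjusted p under 0.05 and 8 and 1 separated. Among 31 other kinetochore genes the median was 0.12, with 7 higher, 0 lower and 8 separated on the higher side. Cohesin and its regulators, which hold sister chromatids together, had a median of 0.10, with 13 of 15 positive. Of these 15, 2 were higher and 0 lower at an unadjusted p under 0.05, and 3 and 0 were separated. The anaphase-promoting complex and its regulators had -0.01 over 19 genes, with 2 higher and 1 lower at an unadjusted p under 0.05 and 3 and 1 separated. The MuvB, E2F and pocket proteins had 0.02 over 19 genes, with 1 and 1 at this p and 1 and 1 separated. DNA replication and S phase genes had a median of 0.02 over 35 genes, with 19 positive, 0 at an unadjusted p under 0.05 in either direction and 1 separated, on the lower side. The 13 G1 cyclins, Cdks and their inhibitors had 0.04, with 2 higher and 1 lower at an unadjusted p under 0.05 and 1 and 1 separated. The difference between these lists and the G2 and mitosis genes was not tested.

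The lowest unadjusted p-values of each list belonged to the following genes, of which none passed adjustment. *Arhgap11a* had signals of 592, 576 and 564 in *Jarid2* WT and 713, 770 and 741 in *Jarid2* Δpanc, and *Sapcd2* of the same list had a log2 fold change of 0.26. The groups of *Arhgap11a* did not overlap, and its log2 fold change was 0.36 (standard error 0.04, adjusted p = 0.218). The inner kinetochore gene *Cenpk* had 327, 341 and 377 against 468, 465 and 519, without overlap and with a log2 fold change of 0.48 and a standard error of 0.08 (adjusted p = 0.250), and *Cenpq* had 0.12. *Fbxo5*, which encodes the inhibitor Emi1 of the anaphase-promoting complex, had 0.21 and the subunit gene *Anapc16* had -0.20. *Sgo1*, which protects centromeric cohesion, had 0.15 and *Cdca5*, which encodes sororin, had 0.17. *E2f7*, a repressor, had 0.14 and *Lin37*, a MuvB subunit gene, had -0.22. *Dut* and *Fen1*, of nucleotide and DNA synthesis, had -0.12 and -0.18. *Cdkn1a*, which encodes the Cdk inhibitor p21, had signals of 447, 438 and 463 against 337, 422 and 309. These did not overlap, and the log2 fold change was -0.35 (standard error 0.13, adjusted p = 0.546), whereas the inhibitor gene *Cdkn2c* had 0.22.

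**Figure D5:**
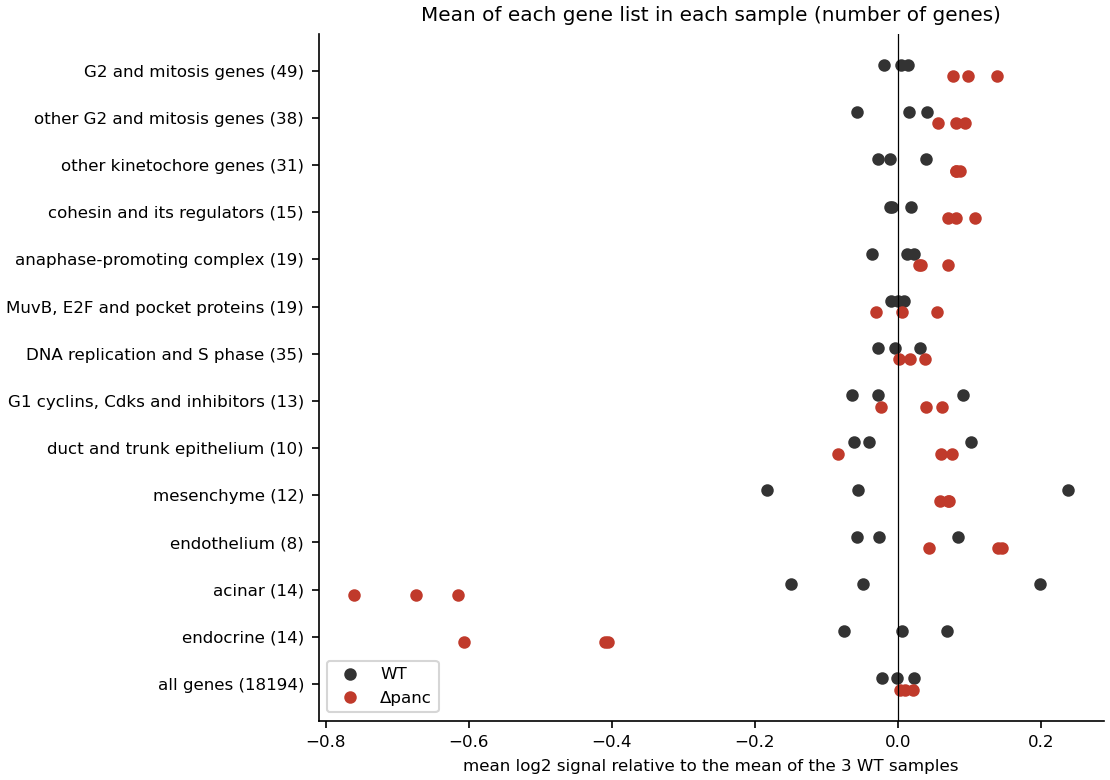
Mean log2 signal of each gene list in each *Jarid2* WT (black) and *Jarid2* Δpanc (red) sample, set against the wild-type mean of that list, with the number of genes in brackets. The G2 and mitosis genes are separated between the groups by a small distance. So are the other G2 and mitosis, other kinetochore, cohesin and anaphase-promoting complex lists. DNA replication and S phase genes overlap, and acinar and endocrine markers are lower in *Jarid2* Δpanc.

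Of the cell type markers, those of acinar and endocrine cells moved with the groups as well. Summed over each list, acinar and endocrine markers had high signals on every array. Some single markers were dim, such as *Gp2*, with 34, 29 and 33 in *Jarid2* WT and 43, 25 and 3 in *Jarid2* Δpanc. The summed signal of 14 acinar markers lay between 78977 and 92289 in *Jarid2* WT, and between 61776 and 73545 in *Jarid2* Δpanc. That of 14 endocrine markers was 21071 to 24295 and 12795 to 14856. Both lists were lower in *Jarid2* Δpanc without overlap, with 14 of 14 fold changes negative in each. In limma 0 markers passed the adjusted threshold. At an unadjusted p under 0.05, 8 of 14 in each list were lower, against 4.44% of all genes. Duct and trunk epithelium markers overlapped (10 genes, 14761 to 16405 and 13637 to 15296), as did 12 mesenchyme markers (30014 to 36735 and 33225 to 37855) and 8 endothelium markers (1409 to 1535 and 1468 to 1656). Erythroid markers (8 genes, 292 to 696 and 331 to 597) and neural and glial markers (6 genes, 897 to 1201 and 1002 to 1286) overlapped as well, and no marker of these lists was under the floor on every array. Single markers leaned higher in several of these lists, with 10 of 12 positive in mesenchyme (median 0.08) and 7 of 8 in endothelium (median 0.12). All 10 macrophage and leukocyte markers were positive (median 0.31), with sums of 1569 to 2417 and 2116 to 5254. Of these 10, 2 were separated on the higher side, against 5.71% of all genes. The part of cell type proportions in the values of the G2 and mitosis genes was not tested.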

How the data were processed

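RNA of 3 *Jarid2* WT and 3 *Jarid2* Δpanc pancreases was hybridized to Affymetrix GeneChip Mouse Genome 430 2.0 arrays after 50 ng was amplified in 2 rounds. The deposited values are linear intensities of 45101 probe sets, made with MAS5 by the authors according to the submitters' processing notes (version not given) and scaled to a mean of 150 after trimming 2% at each end. The paper's methods name RMA and LIMMA, and RMA needs scanner files, which were not used here. A description label naming islets in glucose contradicts the other labels, which were followed.

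Values under 16 were raised to 16 (26.5% to 29.0% of probe sets per array) and log2 was taken. Of 35890 annotated probe sets, 34958 carry 1 symbol, and the brightest one on average represented each of 18194 genes. Limma 3.58.1 in R 4.3.3 (lmFit, eBayes, 4 residual degrees of freedom, prior degrees of freedom 0.60) compared the groups over all genes, with Benjamini-Hochberg adjusted p called under 0.05, and was tested on simulated data. Groups were called separated where no values overlapped. No set test was run. The genes and lists were chosen with earlier results of these data known. Signals of each sample were given for *Mki67*, *Cdk1*, *Top2a*, *Foxm1*, *Plk1*, *Aurkb* and *Cdc20*, for the 8 genes with the lowest p and for separated genes, and from each further list the 2 genes with the lowest p were named. *Kif2c* was added after its values were seen. Alternatives covered each sample left out, the replicate number as a block, 2 normalizations, 3 floors, 2 filters on dim genes, 2 choices of probe set and a trended, robust variance. The number of arrays limits the precision.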

Additional observations from a re-analysis of the deposited data

How the results depend on the processing

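No G2 or mitosis gene passed the adjusted threshold in any of the 17 alternatives. Over all genes up to 8 lower and 4 higher passed with single samples left out, 3 and 1 with quantile normalization and 54 and 10 with trended, robust variances. At an unadjusted p under 0.05 on the higher side, G2 and mitosis genes numbered 5 (10.2%) with median centring of the arrays, against 3.50% of all genes. They numbered 4 (8.16%) with the dimmest 40% left out, against 4.97%, and 2 (4.08%) with the floor at 1, against 3.54%. With genes at the floor on every array left out they numbered 2 (4.08%), against 3.92%. The cause of these counts was not tested. They numbered 18 (36.7%) with quantile normalization, against 4.45%, and 11 (22.4%) with trended, robust variances, against 4.82%. With single samples left out they numbered 5 to 13, against 3.89% to 4.91% of all genes. Separated genes then numbered 16 to 26 on the higher and 1 to 3 on the lower side. Of all genes, 9.56% to 10.8% and 8.58% to 10.5% were separated. With single samples left out the median log2 fold change of the members was 0.091 to 0.13. The median was 0.12 with quantile normalization and 0.073 with median centring, which moved the median of all genes to -0.02. With median centring 10 members (20.4%) were separated on the higher side and 2 on the lower, against 4.88% and 8.62% of all genes. With the mean of all probe sets 13 (26.5%) were separated higher and 0 lower, against 6.91% and 5.06%. Same-numbered samples did not deviate together (correlations of -0.02, -0.01 and -0.02). The replicate block gave 11 members (22.4%) at an unadjusted p under 0.05 on the higher side, against 4.24% of all genes. It gave 0 past the adjusted threshold, among the members and over all genes.

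Some fold changes changed sign, most of them near 0. *Bub1b*, at 0.17 and separated with its brightest probe set, was an exception. With quantile normalization *Ccna2* had 0.043 and *Ncapd2* 0.020, and with median centring *Cdc20* had -0.011. With the mean of all probe sets *Bub1b* had -0.040, *Ccna2* 0.062, *Cdc20* -0.026, *Nek2* 0.099 and *Tpx2* -0.0071. With single samples left out, values ran from -0.048 to 0.050 for *Ccna2*, -0.043 to 0.086 for *Cdc20*, -0.073 to 0.086 for *Melk*, -0.066 to 0.043 for *Ncapd2*, -0.048 to 0.24 for *Ncapg*, -0.15 to 0.041 for *Nek2*, -0.10 to 0.10 for *Nuf2* and -0.015 to 0.14 for *Smc4*. None of these genes passed the adjusted threshold.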
